A study of Drosophila melanogaster with 35 samples.

Results

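The 17 fat body libraries of the series were ranked by their content of eggshell RNA, and the 6 libraries at the rich end were set against the 6 at the poor end. The series holds 35 libraries of poly(A) RNA from female Drosophila melanogaster, of which the 18 gut libraries were not used here. The rank of a library was its mean log2(CPM+1) over 10 eggshell genes, with CPM the count of a gene scaled to 1e+06 counts of the library: Cp15, Cp16, Cp18, Cp19, Cp36, Cp38, Vm26Aa, Vm26Ab, Vm32E and Vm34Ca. These 10 genes were left out of all later counts. Since the libraries were chosen by these measured values, differences between the rich and poor ends are given as descriptions without tests.

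The fat body is the insect tissue of nutrient storage and of the secretion of blood proteins, and in the abdomen it lies close to the ovaries. In the ovary, nurse cells and oocyte make the maternal RNAs that the egg receives, while the follicle cells around them secrete first the vitelline membrane and then the chorion. Yolk proteins are made in the fat body and also in follicle cells.

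All flies carried S106, a GeneSwitch driver that activates UAS transgenes in the adult fat body and digestive tract when the flies eat the steroid RU486. Flies of the genotype S106>UASfoxo also carried a UAS transgene for foxo, which encodes a forkhead transcription factor that insulin signalling restrains. The labels give all flies as mated for 48 h, then separated from males, and as 30 days old. Both switch groups ate RU486 at 200 µM for 21 days followed by 7 days on control food, and the induction label of both control groups reads RU486 negative. With S106 alone there were 5 control and 4 switch libraries, and with S106>UASfoxo 4 of each. Whether the libraries within a group derive from separate cultures is not stated.

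The rich end held 2 control and 2 switch libraries of S106, and 1 control and 1 switch library of S106>UASfoxo. The poor end held 2 and 1 of S106 and 2 and 1 of S106>UASfoxo, so each group occurred at both ends. The eggshell mean ran from 3.79 to 6.50 in the rich libraries, with a median of 4.82, and from 0.02 to 0.44 in the poor libraries, with a median of 0.12. The last library inside the rich end, S106 control replicate 5, had a mean of 3.79, and the first outside it, S106>UASfoxo switch replicate 1, had 2.91. At the other end S106 switch replicate 2 lay inside at 0.44 and S106 switch replicate 3 lay outside at 1.18.

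**Figure D1:**
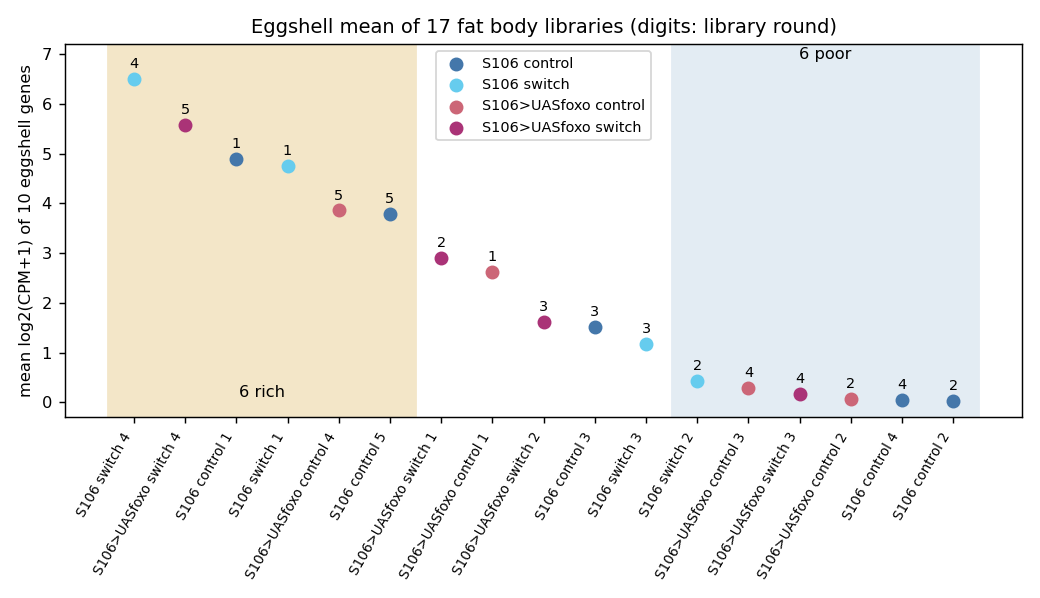
Mean log2(CPM+1) of the 10 eggshell genes (vertical axis) in each of the 17 fat body libraries, ordered by that mean, coloured by labelled group, with the library round as a digit. The 6 rich libraries lie between 3.79 and 6.50 and the 6 poor ones between 0.02 and 0.44.

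Sequencing depth and library round stood beside this ranking. Total counts ran from 6708078 to 13287427 in the rich libraries and from 8181682 to 27527703 in the poor ones. Mean log2 total counts were 23.1 in the rich end and 23.6 in the poor end, and the ranges overlapped. For this report the library numbers in the labels were cut into 5 consecutive runs, called rounds. Each run begins with a gut library of S106>UASfoxo control, where the order of the groups starts again. The labels themselves mark no runs, and nothing says what a run was. Of the rich libraries 2 were in round 1, 1 in round 4 and 3 in round 5, and of the poor ones 3 were in round 2 and 3 in round 4. Round 4 alone held both ends, so for the other rounds library round and the rich or poor end cannot be told apart. The eggshell mean still varied within rounds, as from 0.02 to 2.91 in round 2.

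The eggshell genes themselves differed in make-up between the rich libraries. The 4 vitelline membrane genes summed to 394 to 2717 CPM in the rich libraries and to 0.058 to 4.03 CPM in the poor ones. Cp36 and Cp38, chorion genes side by side on the X chromosome, summed to 2582 CPM in S106 switch replicate 4 and to 0.298 to 28.4 CPM in the other 5 rich libraries. The chorion genes Cp15, Cp16, Cp18 and Cp19, which form a cluster on chromosome arm 3L, summed to 128 CPM in S106>UASfoxo switch replicate 4 and to 17.0 to 38.2 CPM in the other 5. Thus 1 rich library held most of the Cp36 and Cp38 RNA, while vitelline membrane RNA was abundant in all 6. Cp16 and Cp38 had no count in any poor library.

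Among the middle libraries, S106 switch replicate 3 had 5.25 CPM of Cp15, while its 4 vitelline membrane genes summed to 1.5 CPM. In that library osk, whose RNA is made in nurse cells, stood at 0.375 CPM. S106>UASfoxo switch replicate 1 showed the opposite make-up, with vitelline membrane genes at 728 CPM and the chorion genes Cp36 and Cp38 at 0.0845 CPM.

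**Figure D2:**
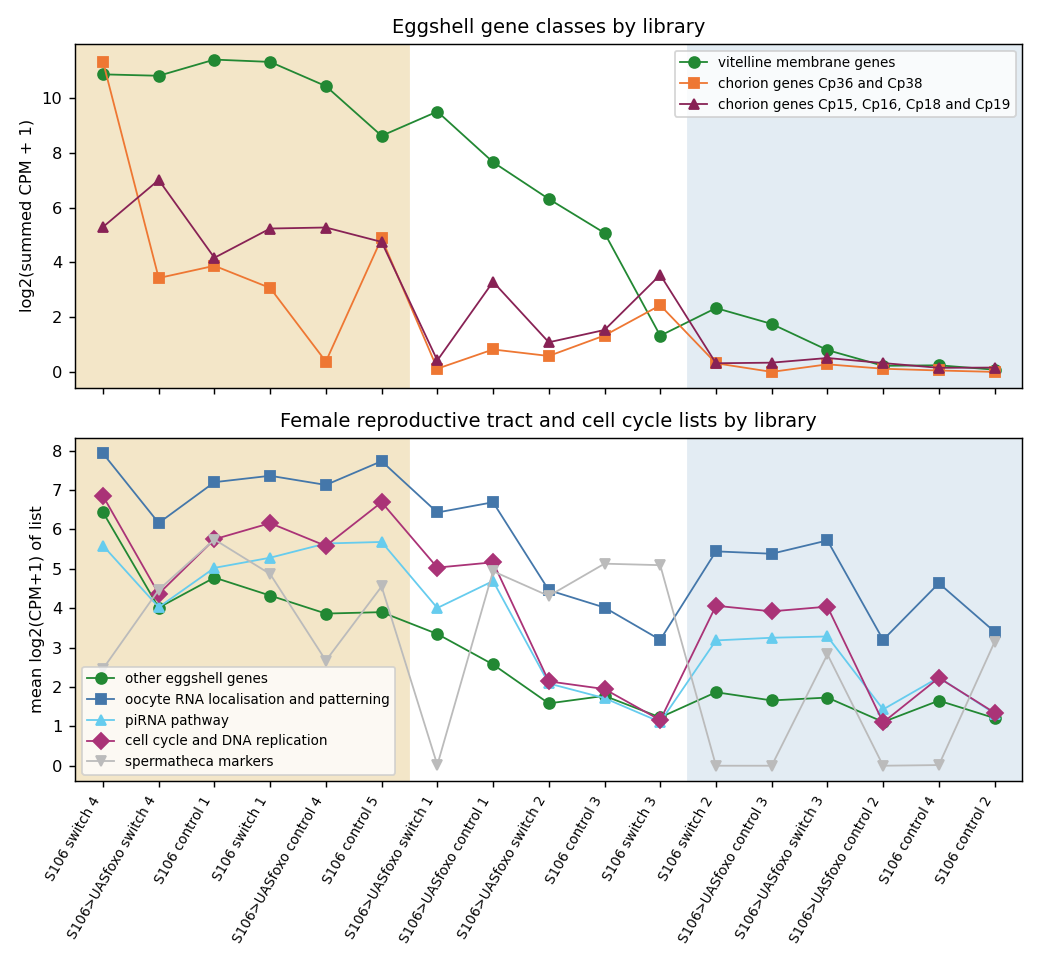
Upper panel, log2 of the summed CPM plus 1 of the vitelline membrane genes and of both chorion groups in each library. Lower panel, mean log2(CPM+1) of 5 gene lists in the same libraries. Libraries are in order of eggshell mean, with the rich end shaded on the left and the poor end on the right. Spermatheca markers do not follow the order of the ovarian lists.

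Many genes were higher in the eggshell-rich libraries and few were lower. A gene counted as higher or lower when all 6 rich libraries lay above or below all 6 poor ones and mean log2(CPM+1) differed by at least 1. Of 9559 genes with a mean of at least 1 CPM, 1618 were higher (16.9%) and 7 were lower (0.0732%). Without a minimum size, 2253 genes (23.6%) lay higher in all rich libraries and 166 (1.74%) lower. The 1618 genes took up 4.74% to 12.4% of the counts in the rich libraries and 2.05% to 3.09% in the poor ones. All genes tested had a median difference of 0.46 on the log2 scale, so values below 0.46 lie under the middle of the table. Of the 9559 differences, 6900 were above 0 and 2659 below 0.

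The split depended on the scaling and the ranking genes. Ranked by the 6 chorion genes alone, which exchanged 1 library at each end, 58 genes were higher and 2 lower, of which 45 and 0 were shared with the counts above. Under TMM scaling, which sets most genes near no difference, the median over all genes was −0.04, 662 genes were higher and 377 lower. All 662 were among the 1618, and the 7 lower genes were among the 377. With each gene centred within its library round, 5 genes were higher and 0 lower. Only round 4 held both ends, so this centring also removes difference between the ends. In round 4 alone S106 switch replicate 4 stood against 3 poor libraries, and the median over all genes was 0.57. These libraries belong to the ends, so for the 1618 genes that order was already set by the call.

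**Figure D3:**
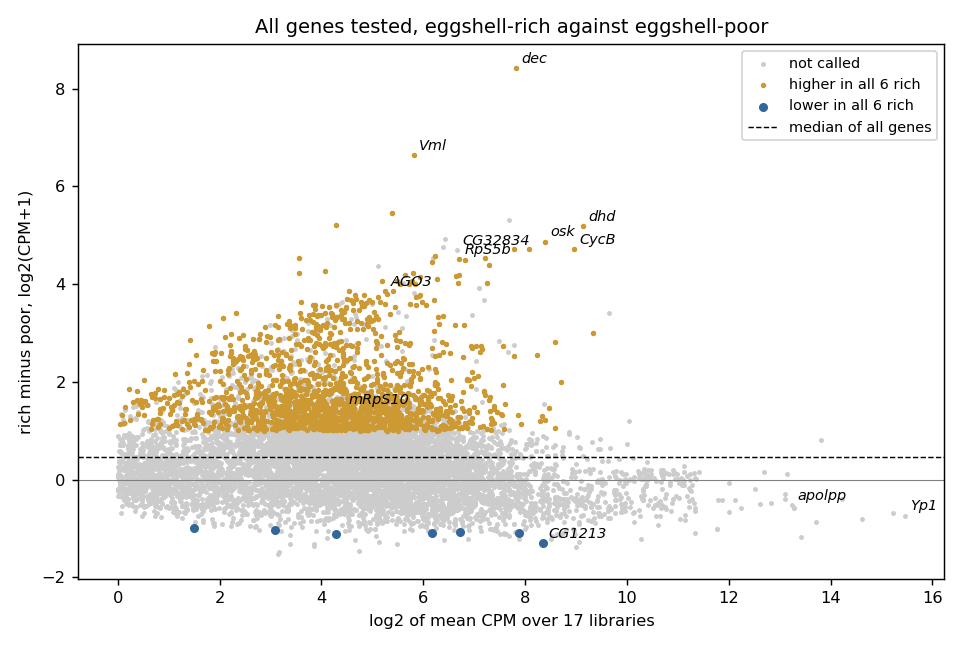
Difference of mean log2(CPM+1) between rich and poor libraries (vertical axis) against log2 of mean CPM over the 17 libraries, one point per gene tested. Genes higher in all 6 rich libraries are gold, the 7 lower ones blue, and the dashed line is the median of all genes at 0.46. The largest difference is that of dec at 8.42.

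The eggshell genes dec and Vml had the largest differences of all genes tested. They were outside the ranking, but they are eggshell genes like those that chose the libraries, so their place is not separate from that choice. Like psd and CG14309 below, both stayed under 1 CPM in every poor library and passed the minimum mean through the other libraries. Of 20 eggshell genes tested outside the ranking, 13 were higher, against 16.9% of all genes, with a median difference of 2.99. The defective chorion gene dec, on X from 7867161 to 7873222 (BDGP6), encodes a protein of the vitelline membrane and chorion. It had a lowest, median and highest level of 195, 532 and 1069 CPM in the rich libraries and 0, 0.285 and 0.978 CPM in the poor ones. The groups did not overlap, and the difference was 8.42. S106 switch replicate 4 was the highest rich library for dec, and S106 control replicate 5 the lowest.

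Vml, which encodes a vitelline membrane-like protein, ran from 61.8 to 292 CPM in the rich libraries and from 0 to 0.978 CPM in the poor ones, a difference of 6.64. For psd, the vitelline membrane gene palisade, the ranges were 16.9 to 77.3 CPM and 0 to 0.489 CPM, a difference of 5.21. Pxt, a peroxidase needed for eggshell formation and follicle maturation, ranged from 122 to 461 CPM in the rich libraries and from 0.167 to 59.9 CPM in the poor ones. Unlike dec, Vml and psd, Pxt was thus well above 0 in some poor libraries. The long noncoding asRNA:CR43615 differed by 4.53, but its exons overlap those of dec on the opposite strand. The strand setting of the counting is not given in the sources used here, so reads of both genes cannot be told apart.

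Other eggshell genes were high in 1 rich library. Cp7Fb, a chorion gene, ranged from 0.108 to 182 CPM in the rich libraries, and yellow-g, needed for a rigid eggshell, from 0 to 167 CPM. Neither was called, since the rich libraries overlapped the poor ones. Of the list, Mur11Da and Muc4B had no count in any poor library, and Femcoat, Pxd and Mur11Da did not reach 1 CPM on average. The terminal patterning gene tsl was the member with a difference below 0, at −0.58.

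Of 22 genes of oocyte RNA localisation and patterning, 16 were higher, against 16.9% of all genes, with a median difference of 2.69. The posterior determinant osk, on 3R from 8935126 to 8938395, had a lowest, median and highest level of 354, 773 and 983 CPM in the rich libraries and 0.167, 81.6 and 132 CPM in the poor ones. The groups did not overlap, but 4 of the poor libraries held 79.7 to 132 CPM, while S106>UASfoxo control replicate 2 held 0.167 and S106 control replicate 2 held 1.04. A poor eggshell mean therefore did not mark a library without germline RNA. The difference of osk, 4.87, was smaller than that of dec, 8.42.

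The ovarian tumour gene otu differed by 4.49, and the translational regulator orb by 4.16. Their poor libraries reached 41.5 and 43.1 CPM. The germline helicase gene vas had a median of 142 CPM in the rich and 11.7 CPM in the poor libraries. The members tud, at 0.11, and egl, at 0.45, lay at or under the median of all genes. The oocyte axis gene grk, at 0.43, had 21.8 to 38.2 CPM in the rich and 16.0 to 24.6 CPM in the poor libraries, which overlapped.

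The piRNA pathway, which silences transposons in the gonads, had 18 of 22 genes higher, against 16.9% of all genes. Its median was 3.04, and all 22 differences were above 0, as were 6900 of the 9559 of all genes. The Piwi-family protein gene AGO3 had a median of 95.4 CPM in the rich and 7.32 CPM in the poor libraries, a difference of 3.85. Differences were 3.67 for krimp and 3.61 for spn-E, which act in perinuclear piRNA processing, and 3.60 for del, which acts in transcription of piRNA clusters. The piRNA factors not called were papi at 0.58, cuff at 0.88, squ at 0.92 and Panx at 1.87. The list's fs(1)Yb lay under 1 CPM and was not tested.

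Genes of egg activation and the early embryo had 10 of 14 higher, against 16.9% of all genes, and a median of 3.28. The thioredoxin gene dhd, which acts on sperm chromatin after fertilisation, had a lowest, median and highest level of 589, 1271 and 2066 CPM in the rich libraries and 0.167, 120 and 231 CPM in the poor ones. The groups did not overlap, and the difference was 5.19. The Polo inhibitor mtrm differed by 4.45, the maternal linker histone BigH1 by 4.23 and gnu, a subunit of the PNG kinase, by 4.07. The calcineurin regulator sra, which is also used outside the ovary, overlapped, with 58.4 to 102 CPM in the rich and 60.2 to 91.2 CPM in the poor libraries.

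Cell cycle and DNA replication genes followed the same pattern, with 21 of 32 higher, against 16.9% of all genes, and a median of 3.15. All 32 differences were above 0, as were 6900 of the 9559 of all genes. The mitotic cyclin gene CycB ran from 350 to 1877 CPM in the rich libraries, with a median of 1087, and from 0.167 to 235 CPM in the poor ones, with a median of 119. CycB differed by 4.72, CycA by 4.71, the mitotic kinase gene polo by 4.19 and the replication clamp gene PCNA by 4.18. The ranges of the 11 genes not called overlapped, as for E2f1 at 0.67. Marf1, an RNA-binding regulator of oocyte meiosis, also differed by 4.72.

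Among the 12 genes of largest difference, CG14309 had an uneven pattern that the eggshell mean did not show. It stood at 143 to 243 CPM in 4 rich libraries, and at 2.39 and 1.86 CPM in S106>UASfoxo control replicate 4 and S106 control replicate 5. In the poor libraries CG14309 ran from 0 to 0.175 CPM, and in the middle ones it reached 1.32 CPM. CG43134 ran from 57.5 to 227 CPM in the rich and from 0 to 34.7 CPM in the poor libraries. In the middle libraries CG43134 stood at 0.845 CPM in S106>UASfoxo switch replicate 1 and at 114 to 142 CPM in the other 4, so it did not follow the eggshell mean there. The spermatheca marker CG32834 was at 0 in the former and at 130 to 303 CPM in the other 4. In S106 control replicate 2, of the poor end, CG43134 was at 34.7 CPM and CG32834 at 83.1 CPM. Whether CG43134 goes with spermatheca RNA was not tested.

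Of 7 follicle cell regulators tested, 1 was higher, a share near the 16.9% of all genes, and the median of 0.63 lay above the 0.46 of all genes. The gene called was br, which encodes the ecdysone-response factor Broad that patterns the dorsal follicle cells. It ran from 7.53 to 13.1 CPM in the rich libraries and from 0.751 to 2.69 CPM in the poor ones, a difference of 2.24. The large Maf factor gene tj was at 14.3 to 28.5 CPM in the rich and 7.03 to 31.8 CPM in the poor libraries, which overlapped. The follicle genes slbo, upd1 and cas lay under 1 CPM and were not tested.

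Cytosolic and mitochondrial ribosomal protein genes had different medians. Of 84 cytosolic ribosomal protein genes tested, 1 was higher, against 16.9% of all genes. The gene called was RpS5b, a paralog used in the ovary. It ran from 153 to 361 CPM in the rich and from 0.0579 to 36.7 CPM in the poor libraries, a difference of 4.51. The list's RpS10a, RpL37-2, RpL22-like, RpS19b, RpS28a and RpS28-like lay under 1 CPM and were not tested. RpS5b resembles RpS5a, and how reads shared by both were counted is not known. The median of the list was 0.02, and it turned to −0.53 under TMM scaling. Among mitochondrial ribosomal protein genes all 72 differences were above 0, as were 6900 of the 9559 of all genes. The mitochondrial median was 0.75, and under TMM it was 0.23 with 61 above 0. Of these 72, 14 were higher, a share near the 16.9% of all genes, led by mRpS10 at 1.43 and mRpL12 at 1.28. Under TMM scaling and under DESeq2 size factors 0 of the 72 were higher.

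The 5 middle libraries separated into those that held the rich pattern and those that did not. S106>UASfoxo control replicate 1 lay above all 6 poor libraries in 98.0% of the 1618 genes, and S106>UASfoxo switch replicate 1 in 79.9%. The other 3 did so in 4.26% to 6.12%. S106>UASfoxo switch replicate 4 was the lowest rich library for 1441 of the 1618 genes, although its eggshell mean ranked 2 of 17. Without it, 2447 genes were higher and 24 lower.

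The genes higher in the rich libraries were otherwise much like the table in their annotation. Their median exon length was 2013 bases, against 2022 bases for all genes tested, and 96.1% were protein coding, against 93.7%. The X chromosome held 14.0% of them and 16.3% of all genes. Of the 1618, 34 had counts identical to another row in every library, so the counting of overlapping genes makes those uncertain. Exons of osk, otu, br, del, Yp1, apolpp, Lsd-1, Ald1, Tps1, Gbp2, BomBc2, ATPsynbeta and elav overlap a gene on the opposite strand, and those of vas, Pepck1 and CG32834 one on the same strand, with the same limit.

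On the side of lower genes, 7 were below all poor libraries in every rich library by at least 1. CG1213, on 3R from 5841170 to 5846568, had a lowest, median and highest level of 64.4, 217 and 257 CPM in the rich libraries and 283, 467 and 583 CPM in the poor ones. The ranges came close but did not overlap, and the rich libraries were lower by a difference of −1.30. S106>UASfoxo control replicate 4 was the lowest rich library for CG1213.

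The serine protease gene grass, which acts upstream of the Toll receptor, ran from 5.37 to 18.5 CPM in the rich and from 19.6 to 36.5 CPM in the poor libraries, a difference of −1.12. SPE, the enzyme that cleaves the Toll ligand Spätzle, ran from 16.4 to 64.6 CPM and from 82.8 to 110 CPM, a difference of −1.09. Exons of SPE overlap those of CG18754, so its counts are uncertain.

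The other lower genes were CG17108 at −1.10, the mitochondrial folate enzyme gene Nmdmc at −1.07, and the heat shock cognate gene Hsc70-2 at −1.04. Ttc30, of intraflagellar transport, ran from 0.298 to 2.84 CPM in the rich and from 2.92 to 6.48 CPM in the poor libraries. Exons of Nmdmc overlap Mst85C. The count of 7 rested on single libraries. It became 2 without S106>UASfoxo control replicate 4, 24 without S106>UASfoxo switch replicate 4, 18 without S106 switch replicate 1, 11 without S106 control replicate 1 and 46 without S106>UASfoxo control replicate 2.

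**Figure D4:**
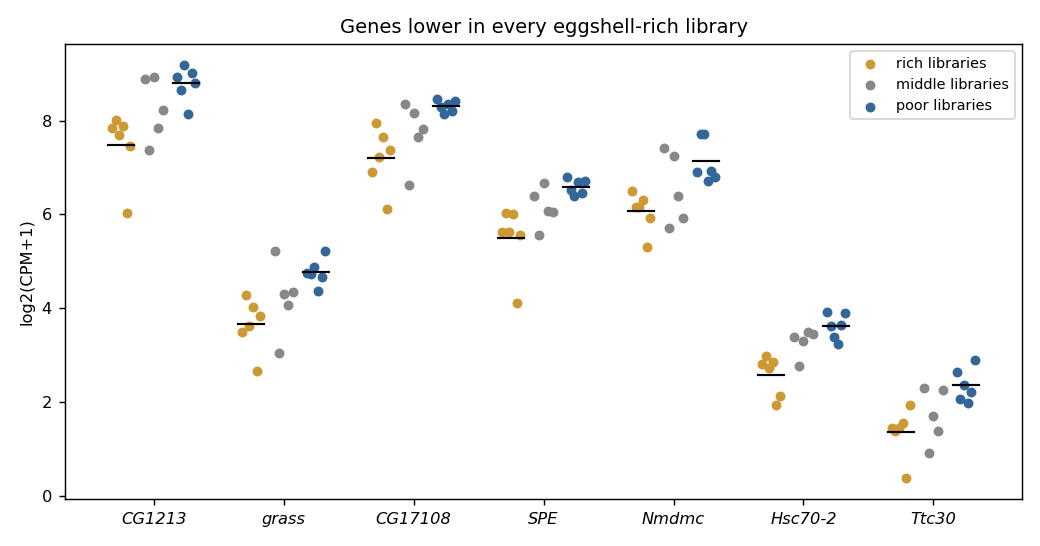
Level in log2(CPM+1) of the 7 genes lower in every eggshell-rich library, one point per library, with the mean of the rich and of the poor libraries as a black line. Rich points lie below all poor points for each gene, and middle libraries lie in between or overlap both.

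The genes of fat body function mostly had differences below 0, against 2659 of the 9559 of all genes, a share that stands beside each list below. None was called lower, where 7 of all genes (0.0732%) were. Without a minimum size, 166 of all genes (1.74%) lay lower in all rich libraries. Fewer fat body cells and less of their RNA per cell cannot be told apart in these bulk libraries, nor can either be told apart from a larger share of other RNA. All 3 yolk protein genes lay below, with a median of −0.87. Yp1 had a lowest, median and highest level of 15591, 30727 and 46307 CPM in the rich libraries and 36855, 49079 and 61683 CPM in the poor ones. The groups overlapped, and the difference was −0.74. Yp1 was lowest in S106>UASfoxo control replicate 4.

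Carrier and storage proteins had 8 of 11 genes below 0 and a median of −0.53. The lipophorin gene apolpp, the main lipid carrier of the blood, ran from 4486 to 12199 CPM in the rich and from 10463 to 15017 CPM in the poor libraries. LpR2, a lipophorin receptor gene, ran from 866 to 1287 CPM and from 1276 to 1569 CPM, a difference of −0.39 with ranges that just overlapped. The lipid transfer protein gene Apoltp, at −0.58, was named after its values were seen. It did not overlap, with 534 to 725 CPM in the rich and 880 to 993 CPM in the poor libraries. The largest differences of the list were −1.39 for the transferrin gene Tsf1 and −1.11 for the clotting gene fon, and both overlapped. The 11 tested genes leave out Fbp1, Fbp2, Lsp1alpha and Lsp1gamma, larval proteins under 1 CPM.

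Lipid synthesis genes had all 14 differences below 0, with a median of −0.64. FASN1, the fatty acid synthase, had a median of 2923 CPM in the rich and 4523 CPM in the poor libraries, a difference of −0.66. Desat1, the main desaturase, ran from 4146 to 6447 CPM in the rich and from 6522 to 9078 CPM in the poor libraries, without overlap and with a difference of −0.49. Genes of lipid storage and breakdown had a median of −0.37, with Lsd-1, a perilipin gene, at −0.37 and Lsd-2, the other perilipin gene, at 0.08. Under TMM scaling Lsd-2 turned to −0.48.

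Sugar metabolism showed the same direction. Genes of glycogen, trehalose and gluconeogenesis had 9 of 11 below 0 and a median of −0.55. Tps1, the trehalose synthase of the fat body, differed by −1.09 and Pepck1, of gluconeogenesis, by −1.02, with overlapping groups in both. Glycolysis genes had 10 of 12 below 0 and a median of −0.39, with the aldolase gene Ald1 at −0.69 and Gapdh2 at 0.42, which turned to −0.13 under TMM. These medians moved when library round was taken into account, but only round 4 held both ends. Centring within round therefore also removes difference between the ends. The 9 ranking genes of at least 1 CPM fell from a median of 4.61 to 2.84. With values centred within the library round, lipid synthesis stood at −0.049, glycogen, trehalose and gluconeogenesis at 0.049, glycolysis at 0.27 and lipid storage and breakdown at 0.05, while in round 4 alone glycolysis was at 0.50.

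Hormone and receptor genes of the fat body had 11 of 13 below 0 and a median of −0.28. Thor, the translational repressor 4E-BP, was at −0.51 and the growth-blocking peptide gene Gbp2 at −0.49, both with overlapping groups. The receptor gene of adipokinetic hormone, AkhR, was named after its values were seen. It did not overlap, as for 1.74% of all genes on the lower side. AkhR had 158 to 219 CPM in the rich and 237 to 331 CPM in the poor libraries, a difference of −0.60. The transgene's own gene foxo ran from 94.4 to 127 CPM in the rich and from 63.2 to 209 CPM in the poor libraries, a difference of −0.19.

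Antimicrobial peptide genes had a median of −0.23 with 13 of 18 below 0, and individual genes went both ways. The Bomanin genes BomS3 and BomBc2, Toll-induced peptides, were at −0.56 and −0.64, while Drs, the antifungal peptide drosomycin, was at 2.61 with overlapping ranges. Respiratory chain genes had a median of −0.14, with ATPsynbeta, of the ATP synthase, at −0.02 and its partner blw at −0.55. Proteasome genes had a median of 0.20, which turned to −0.36 under TMM, with Rpn6 at 0.12 and Prosbeta7 at −0.03.

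**Figure D5:**
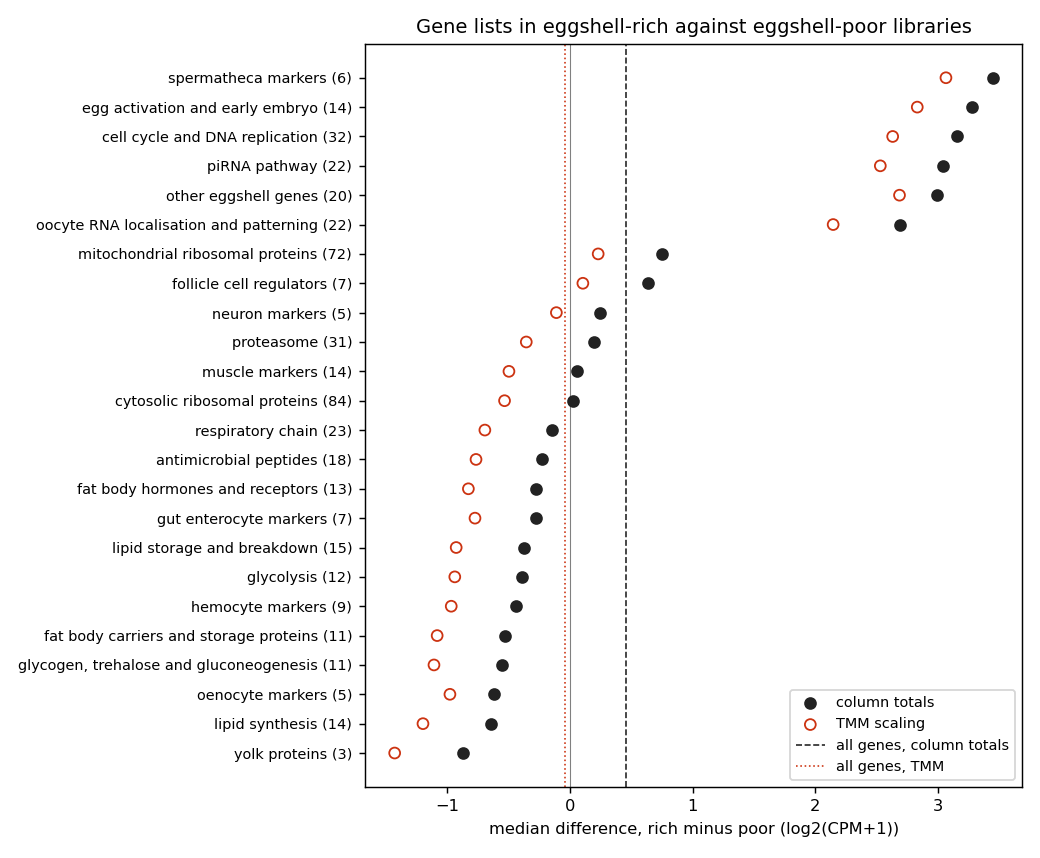
Median difference in log2(CPM+1) between rich and poor libraries for each gene list (number of genes tested in parentheses), scaled by column totals (filled) and by TMM (open). Vertical lines mark the median of all genes at 0.46 and −0.04. Ovarian lists other than follicle cell regulators lie above 2 under both scalings, and fat body lists lie below the line of their scaling.

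Under TMM scaling part of the fat body genes met the rule for lower. These were 5 of 11 carrier and storage genes, 4 of 14 of lipid synthesis, 3 of 11 of glycogen, trehalose and gluconeogenesis, 2 of 12 of glycolysis and 2 of 13 hormone and receptor genes, beside 377 of 9557 genes in all. No yolk protein gene and no gene of lipid storage and breakdown did so. The widest of the 377 was again CG1213 at −1.86, followed by the serpin gene nec at −1.77.

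Markers of other tissues that a dissection can carry were also set side by side. All 6 tested spermatheca markers, secreted by the glands that store sperm in the female tract, differed above 0, with a median of 3.45. Over all genes 6900 of 9559 differed above 0. None of the 6 was called, against 16.9% of all genes called higher. They summed to 48.9 to 580 CPM in the rich libraries, 0.0845 to 483 CPM in the middle ones and 0 to 121 CPM in the poor ones. They were at 0 in S106 switch replicate 2, S106>UASfoxo control replicate 3 and S106>UASfoxo control replicate 2. CG32834, one of these markers, was at 303 CPM in S106 switch replicate 3 and at 83.1 CPM in S106 control replicate 2, libraries with little or no eggshell RNA. Spermatheca RNA therefore varied apart from ovarian RNA in single libraries, and its part in the results was not tested. Of the list CG32833 had no count in a poor library.

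Oenocyte markers had a median of −0.62. Cyp4g1, the hydrocarbon-synthesis P450 gene of oenocytes, ran from 22558 to 33564 CPM in the rich and from 40436 to 42969 CPM in the poor libraries. The groups did not overlap, as for 1.74% of all genes on the lower side, and the difference was −0.68. The 5 markers summed to 23834 to 34502 CPM in the rich and 42222 to 44583 CPM in the poor libraries, most of it Cyp4g1. The marker eloF overlapped, at 453 to 1192 CPM in the rich and 888 to 1299 CPM in the poor libraries. Of the 5, 4 differed below 0 and 1 above. Hemocyte markers had 8 of 9 below 0, against 2659 of the 9559 of all genes. Their median was −0.44, with sums of 451 to 759 CPM in the rich and 428 to 1071 CPM in the poor libraries. Gut enterocyte markers summed to 21.2 to 104 CPM in the rich and 9.30 to 682 CPM in the poor libraries. Their median of −0.28 became 0.25 without S106 control replicate 4.

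Muscle markers had a median of 0.06 and summed to 1859 to 3191 CPM in the rich and 2492 to 3334 CPM in the poor libraries, and the median turned to −0.50 under TMM. Neuron markers had a median of 0.24, which turned to −0.11 under TMM and to −0.09 without S106>UASfoxo switch replicate 4, with sums of 97.1 to 141 CPM and 118 to 137 CPM. Of 10 neuron markers 5 were tested, 3 above 0 and 2 below, and VGlut was at 0 in all poor libraries. The neuronal RNA-binding protein gene elav was at 60.7 to 94.8 CPM in the rich and 94.9 to 117 CPM in the poor libraries. It differed by −0.63. The marker Syx1A went the other way, at 15.6 to 41.0 CPM and 8.93 to 16.1 CPM, a difference of 1.01 with overlapping ranges. Exons of elav overlap arg and those of Syx1A overlap eIF4EHP, so their counts are uncertain. By column totals no gene of these 5 lists was called, against 16.9% of all genes higher and 0.0732% lower. The part of these lists in the results was not tested. Under TMM scaling Cyp4g1, at −1.24, and elav, at −1.18, met the rule for lower.

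The labelled groups were compared over all 17 libraries with edgeR's quasi-likelihood test, which does not use the ranking. For foxo, the targeted gene, S106>UASfoxo switch against control gave a log2 fold change of 0.63 ± 0.35 (SE, n = 4 and 4), with an adjusted p of 0.457. The induction had ended 7 days before, and no gene passed in this comparison, in S106 switch against control or in the difference of both, at an adjusted p under 0.05 over 9819 genes. At an unadjusted p under 0.05 there were 1269, 68 and 185 genes, and DESeq2 called 61, 1 and 0 genes. The spread of ovarian genes within groups was wide, so that dec had a log2 fold change of 2.35 ± 2.58 (SE, n = 4 and 4) and an adjusted edgeR p of 0.747 in S106>UASfoxo switch against control. For osk the edgeR value was −0.62 ± 1.69 (SE), with an adjusted p of 0.914.

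With the eggshell mean of each library as a covariate, 984 genes (10.0%) passed in S106>UASfoxo switch against control, 863 higher and 121 lower, and 0 in the other comparisons. The covariate is the value that ranked the libraries, so this count is given with no account of its genes. The count rested on single libraries, since it was 0 without S106>UASfoxo switch replicate 1, 183 when either replicate 2 or replicate 4 of S106>UASfoxo control was left out, and 421 without S106>UASfoxo switch replicate 2.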

How the data were processed

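Poly(A) RNA of 17 fat body libraries was analysed from 1 deposited table of raw read counts per gene (14649 rows, 14538 matched to a symbol). Per the labels' protocols libraries were made with a directional kit carrying molecular barcodes. Tools in the submitters' processing notes were HISAT2, featureCounts, SAMtools, FastQC and DESeq2. Versions, build, strand setting and barcode use are not given there, so the counts may include PCR duplicates. Coordinates are BDGP6, Ensembl release 115, and overlaps are of exons in that annotation. Titles and induction labels set the groups, since the treatment text names RU486 for every sample.

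Counts were divided by column totals, and genes with a mean of at least 1 CPM over 17 libraries were kept. Differences are of mean log2(CPM+1) and understate those of low genes. The labelled groups were fitted with edgeR 4.0.16 in R 4.3.3 (TMM, filterByExpr, robust quasi-likelihood test, Benjamini-Hochberg adjustment), which measures only the spread between these libraries. DESeq2 1.42.0 and limma 3.58.1 were alternatives. The steps were tested on simulated data.

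The members and the 25 gene lists were chosen with earlier results of these data known. Named are foxo, the 10 ranking genes, the 12 called genes of largest difference in each direction (7 were lower), and from each list up to 4 called genes or the 2 of highest mean CPM. Others named were chosen after their values were seen. Entries Orc1 and FASN3 matched no row. Gut libraries were not used because their identifiers did not go with the counts.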

Additional observations from a re-analysis of the deposited data

Results flagged for a closer look

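Of 144 groups of list means, 9 held a library far from the others of its group by Dixon's criterion, where chance flags about 5%. In S106>UASfoxo control, replicate 4 had the lowest mean log2(CPM+1) of fat body carriers and storage proteins, 6.52 against 6.98 to 7.01 in the other libraries. The same library had 6.40 for lipid storage and breakdown, against 7.30 to 7.36 in its labelled group and 7.32 to 7.72 in the other rich libraries. Its lipid synthesis mean was 7.06, against 8.12 to 8.38 in the other rich libraries. S106>UASfoxo switch replicate 4 had a lipid synthesis mean of 8.12, against 8.74 to 8.77 in its labelled group, and an oenocyte marker mean of 7.90, against 7.35 to 7.55 in the other rich libraries. S106 switch replicate 4 had a mean of 6.44 for other eggshell genes, against 3.86 to 4.78 in the other rich libraries. Gut enterocyte markers stood apart in S106 switch replicate 4, at 2.49 against 2.99 to 3.10, and in S106>UASfoxo control replicate 3, at 1.13 against 2.23 to 2.41.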

How the results depend on the processing

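The direction of the ovarian lists other than follicle cell regulators, and of yolk proteins, carriers, hormones, lipid synthesis, antimicrobial peptides, respiratory chain, oenocyte and hemocyte markers, held under every alternative tried. By scaling, TMM gave 662 genes higher and 377 lower (63.7% of calls higher against 99.6% by column totals), and DESeq2 size factors 722 and 309 (70.0%). Medians under TMM and then under DESeq2 size factors were −1.08 and −1.04 for carriers, −0.83 and −0.79 for hormones, −1.20 and −1.16 for lipid synthesis, −0.94 and −0.90 for glycolysis, −1.11 and −1.07 for glycogen, trehalose and gluconeogenesis, and −0.69 and −0.65 for the respiratory chain. They were −0.53 and −0.49 for cytosolic and 0.23 and 0.27 for mitochondrial ribosomal proteins, −0.36 and −0.31 for the proteasome, −0.50 and −0.45 for muscle and −0.97 and −0.93 for hemocyte markers. Lipid storage and breakdown stood at −0.93 under TMM.

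A pseudocount of 0.1 gave 12 genes lower, a median of 4.88 for other eggshell genes and 5.60 for spermatheca markers. A pseudocount of 5 gave 4 genes lower, 1.60 for other eggshell genes and 1.98 for the piRNA pathway. A minimum difference of 0.5 gave 131 genes lower, and a minimum of 2 gave 431 higher and 0 lower. With 8 libraries per end 0 genes were lower and the spermatheca median was 1.92. Ranked by the 6 chorion genes alone, 58 genes were higher and 2 lower, and medians were 2.09 for the piRNA pathway, −0.30 for lipid synthesis and 0.43 for mitochondrial ribosomal proteins. Ranked by the 4 vitelline membrane genes alone, 1264 were higher and 0 lower, and the spermatheca median was 1.75.

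Centred within library round, which also removes difference between the ends where a round held 1 end, 5 genes were higher and 0 lower. Medians were then 1.63 for other eggshell genes, 1.12 for oocyte genes, 1.09 for the piRNA pathway, 1.41 for egg activation, 1.38 for the cell cycle, −0.16 for yolk proteins, −0.049 for lipid synthesis, 0.27 for glycolysis, 0.049 for glycogen, trehalose and gluconeogenesis, 0.25 for mitochondrial ribosomal proteins, −0.21 for muscle and 0.28 for spermatheca markers. Centred within labelled group, 98 genes were lower. Round 4 alone, chosen after seeing the data, gave 3441 genes higher and 441 lower. Its medians were 5.24 for other eggshell genes, −0.68 for hormones, −0.35 for lipid synthesis, 0.25 for lipid storage and breakdown, 0.50 for glycolysis, 0.45 for the proteasome, −0.60 for muscle, −0.99 for neuron and 1.62 for spermatheca markers. The cause of these changes was not tested. With each library left out, the higher count ran from 1524 to 2447 and the lower count from 2 to 46.

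In the labelled comparisons DESeq2 called 61 genes in S106>UASfoxo switch against control and 1 in S106 switch against control, and the eggshell covariate gave 984 in the former. With that covariate and each library left out, in fits chosen after seeing the data, the count ran from 0 to 1236. Same-numbered libraries correlated at −0.419 to 0.770 in the S106 groups and −0.0641 to 0.584 in the S106>UASfoxo groups, so the numbers were not taken to pair them. Fits with a replicate block, by title number or by library round, called 0 genes in all 3 comparisons, with 1805, 598 and 1171 and with 1790, 191 and 907 genes at an unadjusted p under 0.05. In S106>UASfoxo switch against control, the log2 fold change of osk turned positive, at 1.66 by limma-voom, 0.55 with the title block, 2.74 with the round block and 0.094 without S106>UASfoxo control replicate 4, the upper end of −1.03 to 0.094 with single libraries left out. In S106 switch against control the covariate gave 0.13 for foxo, −0.28 for osk, −1.45 for dec and 0.14 for Yp1. The covariate is the eggshell mean that ranked the libraries, and dec is itself an eggshell gene. The value of dec with this covariate therefore cannot show an effect of the switch, and no conclusion is drawn from the other values. In the same comparison the title block gave −0.46 for dec. With single libraries left out, foxo there ran from −0.23 to 0.13, osk from −0.34 to 0.94 and Yp1 from −0.55 to 0.18. In the difference of both effects osk was 1.48 by limma-voom and 1.10 with the round block, and dec ran from −0.75 to 6.68 with single libraries left out. Depth limits the low genes, as the shallowest library held 6708078 counts.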
